A study of Homo sapiens with 4 samples.

Results

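Cell junction and polarity genes were examined in HCT116 cells, a human colorectal carcinoma line, after knockdown of RALY, an hnRNP-family protein that binds RNA. The 38 genes were taken from a list set by function: 14 tight junction genes, 4 polarity genes, 9 adherens junction genes, 10 desmosome genes and EPCAM. All 38 symbols were matched to the 58884 genes of the count tables, and all 38 had enough counts to be among the 19686 genes tested. The study has 4 RNA sequencing libraries, 2 titled WT (the controls) and 2 titled RALY_KD. Knockdown cells received lentivirus with a short hairpin RNA against RALY, and the protocol names a nonsilencing hairpin virus for comparison, with polyprene and 72 h for both. The control labels also read untreated, so it is unclear whether the controls had the nonsilencing virus. All cells grew in RPMI-1640 with fetal bovine serum, penicillin and streptomycin. One label numbers the line HCT-117 in the second library of each group, and the cell line entry is HCT-116 throughout. How many hairpins or clones were used is not stated in the labels, nor whether the 2 libraries of a group are separate cultures. P-values therefore measure only the spread between libraries, possibly a technical one. The material was bulk RNA, so fewer cells with a transcript and less transcript per cell cannot be told apart.

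Epithelial cells are held together by 3 kinds of junction. Tight junctions seal the space between cells: claudins, occludin and other membrane proteins form strands, and scaffolds such as the zonula occludens proteins TJP1 and TJP3 tie the strands to actin. Polarity complexes built around PARD3, PARD6 and PATJ place the tight junction at the apical side. Adherens junctions hold cells by cadherins, bound inside the cell by catenins, and by nectins, bound by afadin (AFDN). Desmosomes join neighbouring cells through the cadherins DSG and DSC, the armadillo proteins JUP and PKP, and plakins such as desmoplakin (DSP), which reach the keratin filaments. In colon epithelium they keep the cell sheet closed.

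After RALY knockdown 10 of the 38 junction genes fell and 7 rose, and the claudins, scaffolds, adherens junction genes and desmosome genes each held both directions. The genes that fell were TJP3, PARD6A, PPL, MARVELD3, PKP3, EVPL, CDH3, NECTIN1, JUP and CLDN7, by 1.28-fold to 3.62-fold. The genes that rose were CLDN2, CGN, DSC2, TJP1, DSC3, AFDN and NECTIN3, by 1.37-fold to 3.41-fold. Across all genes tested, 13.1% were called lower and 12.5% higher (edgeR quasi-likelihood test, Benjamini-Hochberg adjusted p under 0.05), against 26.3% and 18.4% of the junction genes. The median log2 fold change of the 38 genes was -0.07, and that of all genes tested was 0.01. Both knockdown libraries lay below both controls for 16 junction genes (42.1%, against 31.3% of all genes tested) and above them for 13 (34.2%, against 32.3%). When either control was left out, fewer junction genes were called higher, and calls over all genes tested fell too. Junction genes called lower were lost less often in these fits. The log2 fold change of TJP1 was 0.56 without control replicate 1 and 0.61 without control replicate 2.

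**Figure D1:**
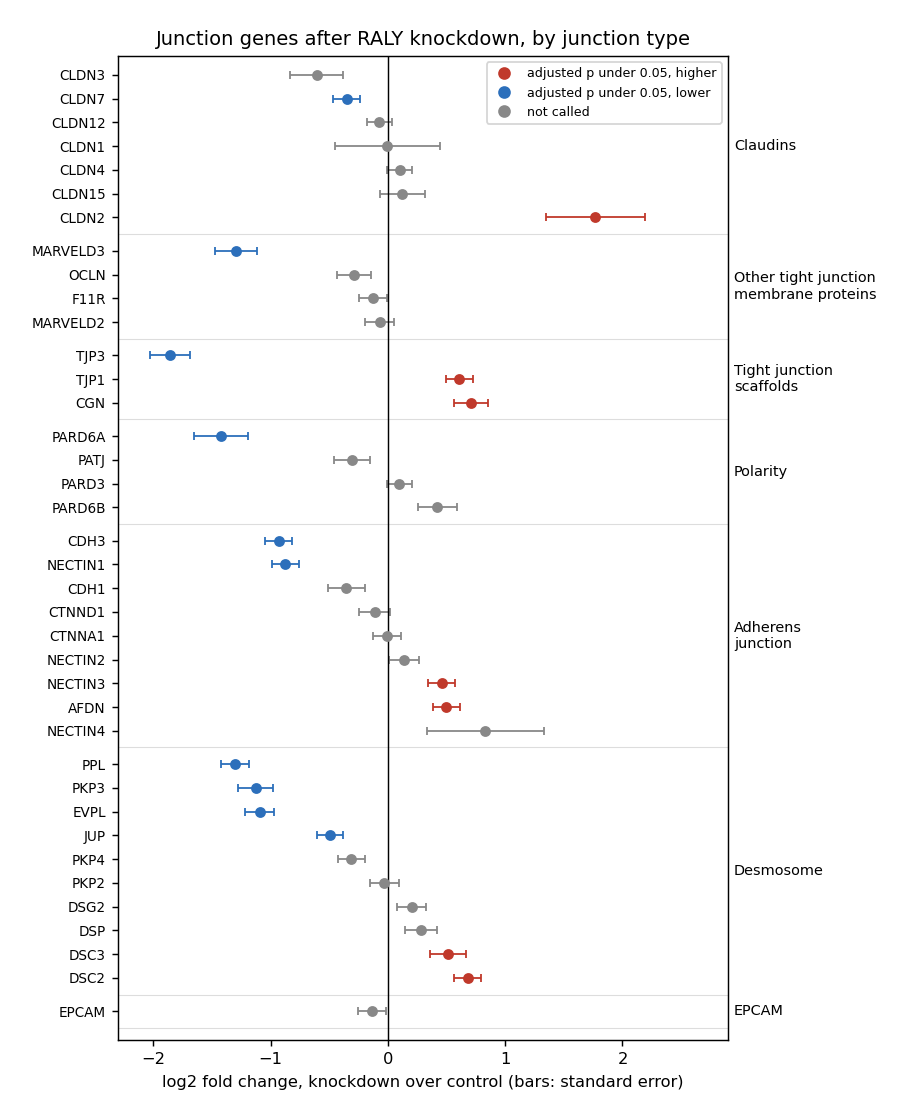
Log2 fold change of each of the 38 junction genes (knockdown over control, x axis, points with bars of 1 standard error), grouped by junction type and ordered within it. The 10 blue genes were called lower and the 7 red genes higher, and the tight junction scaffolds hold both the lowest value of all, TJP3 at -1.86, and TJP1 at 0.61.

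RALY itself checks the labels. Its counts were 1903 and 2132 for controls, against 634 and 522 after knockdown (log2 fold change -1.84, SE 0.127, with edgeR adjusted p = 6.59e-06). Library totals ran from 13360007 to 16847520 counts. Counts of very abundant genes were low for their length: EEF1A1, among the most abundant messages of most cells, had 0.934 counts per base of transcript and GAPDH 2.07. Occupancy, here the mean count as a share of 2 counts per base of transcript, is used below as a rough measure of this. EEF1A1 had an occupancy of 46.7% and GAPDH 103.6%, so 2 counts per base is not a fixed limit. A low occupancy therefore does not show that counts rise in proportion to level, which also limits levels, sums and shares per kilobase. Occupancy was 12.5% at the median of the junction genes and over 40% for 3 of them, EPCAM (58.5%), CTNNA1 (50.1%) and CLDN4 (44.1%).

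The start regions of 6 called genes are shown here. Among them, TJP3 and TJP1 are the only paralogs that were called in opposite directions. Windows of 300 bases, from 250 before to 50 after the start, came from a set of RefSeq start regions (GRCh38.p14). The set used held 25 of the 38 genes. Those shown are the 6 called genes with the largest change among the 11 called genes it held. PPL, MARVELD3, PKP3, EVPL, CDH3 and NECTIN1 had no entry in the set used. Each is written from 5′ to 3′ on the gene's strand, and capitals mark the E-box CAGGTG (or CACCTG on the other strand), which ZEB and SNAI repressors are known to bind, and the grainyhead motif AACCNGTT on either strand.
TJP3, chr19:3708134-3708433, plus strand: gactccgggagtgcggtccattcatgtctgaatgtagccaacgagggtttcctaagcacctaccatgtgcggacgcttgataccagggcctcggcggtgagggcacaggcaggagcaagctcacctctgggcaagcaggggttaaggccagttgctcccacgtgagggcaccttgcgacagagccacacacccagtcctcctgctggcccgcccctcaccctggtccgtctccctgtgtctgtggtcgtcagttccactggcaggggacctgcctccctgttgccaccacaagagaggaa
TJP1, chr15:29969000-29969299, minus strand: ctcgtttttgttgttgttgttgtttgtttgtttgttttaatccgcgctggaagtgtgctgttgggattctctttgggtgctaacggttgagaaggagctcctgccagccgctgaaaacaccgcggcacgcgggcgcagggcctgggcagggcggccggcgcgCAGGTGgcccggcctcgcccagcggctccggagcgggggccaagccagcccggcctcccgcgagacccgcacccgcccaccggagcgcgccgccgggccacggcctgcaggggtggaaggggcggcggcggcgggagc
CLDN2, chrX:106899914-106900213, plus strand: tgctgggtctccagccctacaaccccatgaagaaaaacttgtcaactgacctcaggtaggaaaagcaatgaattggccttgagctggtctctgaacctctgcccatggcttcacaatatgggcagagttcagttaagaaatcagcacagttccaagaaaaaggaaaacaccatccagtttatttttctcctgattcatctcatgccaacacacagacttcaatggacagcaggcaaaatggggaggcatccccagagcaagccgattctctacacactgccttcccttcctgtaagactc
PARD6A, chr16:67660710-67661009, plus strand: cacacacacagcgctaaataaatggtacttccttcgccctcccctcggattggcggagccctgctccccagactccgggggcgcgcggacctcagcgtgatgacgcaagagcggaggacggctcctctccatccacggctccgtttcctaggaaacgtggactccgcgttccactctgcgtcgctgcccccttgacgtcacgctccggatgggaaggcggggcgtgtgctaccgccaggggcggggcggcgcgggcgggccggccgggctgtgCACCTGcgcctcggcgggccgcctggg
CGN, chr1:151511137-151511436, plus strand: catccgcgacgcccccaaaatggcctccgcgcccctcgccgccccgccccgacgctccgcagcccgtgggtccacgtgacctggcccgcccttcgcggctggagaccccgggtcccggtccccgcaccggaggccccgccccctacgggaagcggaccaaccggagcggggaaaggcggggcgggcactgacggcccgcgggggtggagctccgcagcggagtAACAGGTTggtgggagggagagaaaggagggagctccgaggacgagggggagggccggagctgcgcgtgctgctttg
DSC2, chr18:31102372-31102671, minus strand: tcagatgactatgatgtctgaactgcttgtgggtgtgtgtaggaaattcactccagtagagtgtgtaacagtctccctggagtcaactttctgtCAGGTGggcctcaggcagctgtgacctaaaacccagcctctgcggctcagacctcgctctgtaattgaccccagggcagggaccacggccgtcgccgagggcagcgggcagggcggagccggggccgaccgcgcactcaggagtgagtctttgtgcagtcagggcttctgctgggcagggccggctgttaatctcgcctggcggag

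The TJP3 and CLDN2 windows hold neither motif. TJP1, DSC2 and PARD6A hold 1 E-box each, and CGN holds 1 grainyhead match that begins 27 bases before the start. The TJP1 start given by RefSeq lies outside the span listed in the count tables. Over the 25 junction genes found, 10 windows (40%) hold an E-box, against 20.6% of the 35116 windows in the set used. The GC content of the windows also differed, at a median of 68.0% for the junction genes and 58.7% for all windows. E-boxes were found in 3 of 7 windows of genes called higher, those of AFDN, DSC2 and TJP1, and in 1 of 4 of genes called lower. Among genes that were not called, those of CLDN3, DSG2, DSP, NECTIN4, OCLN and PATJ held one. The grainyhead motif was in 1 of 25 (4%, against 1.73% of all windows), the AP-1 motif TGANTCA in 3 (12%, against 7.71%) and the TEAD motif GGAATG in 1 (4%, against 14.0%), each searched on both strands. These matches describe letters in a window and do not show that a factor binds there.

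Claudins, the strand-forming proteins of the tight junction, gave 1 gene called lower and 1 called higher of 7 (median log2 fold change -0.005). That is 14.3% each way, near the 13.1% lower and 12.5% higher of all genes tested. CLDN7 (chr17:7259903-7263983), a barrier claudin that binds EPCAM, had 34.9 ± 2.65 CPM per kilobase of exon in the controls (SD, n = 2). It had 91.6 and 82.2 CPM (counts scaled to 1e6 per TMM-adjusted library) in the controls and 68.6 and 67.5 CPM in the knockdown libraries. Its 2 knockdown values were nearly equal and both lay below the controls (log2 fold change -0.35, SE 0.114, edgeR adjusted p = 0.0392). CLDN7 shares 12.3% of its exon bases with another gene on the same strand, so its counts may be affected. CLDN2 (chrX:106900164-106930861), which forms a cation and water pore, was counted 24 and 21 times in controls, and 115 and 45 times after knockdown. The knockdown libraries differed from each other more than the controls did, at 7.17 and 3.03 CPM against 1.82 and 1.21 CPM. CLDN2 rose 3.41-fold (log2 fold change 1.77, SE 0.424, edgeR adjusted p = 0.00993). Leaving out knockdown replicate 1 gave CLDN2 a log2 fold change of 0.996, with an adjusted p of 0.0623 by edgeR, and it was not called without control replicate 1 or 2 (adjusted p = 0.105 and 0.199). CLDN7 was not called without control replicate 1 or 2 either (edgeR adjusted p = 0.2445 and 0.115), nor with offsets for GC content and length (adjusted p = 0.109).

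CLDN3 and CLDN4, barrier claudins that lie 29.3 kb apart on chromosome 7, had log2 fold changes of -0.61 (SE 0.227, edgeR adjusted p = 0.0680) and 0.10 (SE 0.109, adjusted p = 0.556). CLDN3 had 26.1 and 24.8 CPM in the controls and 12.4 and 21.0 CPM in the knockdown libraries, so that 1 knockdown library was far lower than the other. Without knockdown replicate 2 its log2 fold change was -1.04 (edgeR adjusted p = 1.66e-05), and without knockdown replicate 1 it was -0.29. CLDN12, CLDN15 and CLDN1 had log2 fold changes of -0.07, 0.12 and -0.005, and CLDN1 had between 12 and 23 counts in each library. Summed over the 7 claudins, the level was 97.4 ± 2.001 CPM per kilobase of exon in the controls and 85.3 ± 5.59 in the knockdown (SD, n = 2 each). That sum leaves out CLDN6, which is not among the 38 and was called higher. With CLDN6 and the 14 other listed claudins it was 106 ± 1.09 in the controls and 107 ± 10.9 in the knockdown, so the lower sum did not hold over all claudins measured.

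Among the other tight junction membrane proteins, 1 of 4 fell and none rose, against 13.1% lower and 12.5% higher of all genes tested. A share of so short a list rests on 1 gene. MARVELD3 (chr16:71626161-71642114), a relative of occludin, had 49.9 and 47.0 CPM in the controls and 23.3 and 16.1 CPM in the knockdown libraries. The controls were close to each other and both knockdown libraries were far below them (log2 fold change -1.29, SE 0.177, edgeR adjusted p = 0.000405). MARVELD3 shares 18.1% of its exon bases with PHLPP2 on the other strand, and the labels do not state whether counting used strand. Occludin (OCLN) had 37.0 and 42.9 CPM in the controls and 31.4 and 34.1 CPM in the knockdown libraries (log2 fold change -0.29, edgeR adjusted p = 0.160). Its partial copy OCLNP1 had 3.58 and 3.94 CPM on average in controls and knockdown, so that reads may be split between them. Tricellulin (MARVELD2), which seals corners between 3 cells, and the adhesion molecule F11R had log2 fold changes of -0.07 and -0.13, and their groups overlapped. F11R shares 36.6% of its exon bases with another gene on the same strand, and its counts are uncertain.

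All 3 tight junction scaffolds were called, 2 higher and 1 lower, against 12.5% and 13.1% of all genes tested. The zonula occludens paralogs moved in opposite directions. TJP3 (chr19:3708362-3750813) had 49.8 and 55.4 CPM in the controls and 12.4 and 16.7 CPM in the knockdown libraries. That is 27.6% of the control level, the largest fall among the 38 genes (log2 fold change -1.86, SE 0.172, edgeR adjusted p = 3.94e-05). TJP1 (chr15:29699367-29968865) had 177 and 180 CPM in the controls and 279 and 266 CPM in the knockdown libraries. The libraries of each group are close and the groups are well apart (log2 fold change 0.61, SE 0.118, edgeR adjusted p = 0.00314). Per kilobase of exon, TJP1 and TJP3 were close in the controls, at ratios of 1.25 and 1.15, and TJP1 was 7.95 and 5.60 times TJP3 in the knockdown libraries. Their sum was 29.1 ± 1.21 CPM per kilobase in the controls and 27.9 ± 0.00258 in the knockdown (SD, n = 2 each), so the sum differed by little more than the spread of the controls. Per kilobase of the canonical transcript the ratios of TJP1 to TJP3 were 1.52 and 1.39 for controls, and 9.66 and 6.81 after knockdown. Cingulin (CGN, chr1:151510510-151538692), which links the scaffolds to actomyosin, had 33.8 and 42.7 CPM in the controls and 58.2 and 67.2 CPM in the knockdown libraries. The groups did not overlap (log2 fold change 0.71, SE 0.146, edgeR adjusted p = 0.00433), and CGN was not called without control replicate 1 (adjusted p = 0.127).

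Of 4 polarity genes, PARD6A fell and none rose, against 13.1% lower and 12.5% higher of all genes tested. PARD6A (chr16:67660946-67662778), an adaptor that brings atypical protein kinase C to PARD3, had 12.2 and 12.6 CPM in the controls and 4.62 and 4.64 CPM in the knockdown libraries. The libraries of each group were almost equal (log2 fold change -1.42, SE 0.230, edgeR adjusted p = 0.00108), and without control replicate 2 the adjusted p was 0.0507. Its paralog PARD6B had 37.1 and 38.9 CPM in the controls and 42.0 and 59.9 CPM in the knockdown libraries (log2 fold change 0.42, edgeR adjusted p = 0.0786). Per kilobase of exon the ratio of PARD6A to PARD6B was 1.03 ± 0.0104 in the controls and 0.295 ± 0.0721 in the knockdown (SD, n = 2 each). PARD3, the scaffold of the complex, had a log2 fold change of 0.10 and was not called. PATJ, which binds the Crumbs complex, had 94.2 and 92.2 CPM in the controls and 88.6 and 61.9 CPM in the knockdown libraries (log2 fold change -0.31, edgeR adjusted p = 0.152). For PATJ, knockdown replicate 1 lay close to the controls. The log2 fold change of PATJ was -0.61 without that library and -0.08 without knockdown replicate 2. For PARD6B the same fits gave 0.63 and 0.14, so both values depend on which knockdown library is kept.

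Among adherens junction genes, 2 of 9 fell and 2 rose (22.2% each, against 13.1% and 12.5% of all genes tested). The catenins CTNNA1 and CTNND1 kept their level within the spread of the libraries. P-cadherin (CDH3, chr16:68636189-68722616) had 129 and 126 CPM in the controls and 71.4 and 61.9 CPM in the knockdown libraries. It fell 1.91-fold (log2 fold change -0.93, SE 0.115, edgeR adjusted p = 0.000216). E-cadherin (CDH1), its neighbour 14.7 kb downstream, had 41.2 and 55.9 CPM in the controls and 38.7 and 37.3 CPM in the knockdown libraries. For CDH1 the controls differed more from each other than the lower control did from the knockdown (log2 fold change -0.36 with SE 0.156, edgeR adjusted p = 0.114). CDH1 was called with offsets for GC content and length and with a term for replicate number, fits that used all 4 libraries. Without knockdown replicate 1 its log2 fold change was -0.40, and without control replicate 2 it was -0.13. CDH3 was the more abundant cadherin per kilobase of exon in every library, at ratios to CDH1 of 3.14 and 2.26 in the controls, against 1.85 and 1.67 after knockdown. Their summed level was 28.9 ± 1.35 CPM per kilobase in the controls and 17.2 ± 1.26 in the knockdown (SD, n = 2 each). The catenin genes CTNNA1, which ties cadherins to actin, and CTNND1, which holds them at the membrane, had log2 fold changes of -0.01 (SE 0.122) and -0.11 (SE 0.128), and the groups overlapped for both. CTNNA1 had an occupancy of 50.1%, so a change in it may not show in full.

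The nectins, immunoglobulin-like adhesion proteins, went in different directions. NECTIN1 (chr11:119623408-119729200) had 88.4 and 92.7 CPM in the controls and 48.8 and 49.96 CPM in the knockdown libraries (log2 fold change -0.87, SE 0.114, edgeR adjusted p = 0.000299). NECTIN3 (chr3:111070071-111275563), a strong binding partner of NECTIN1 across cells, had 94.7 and 89.4 CPM in the controls and 133 and 120 CPM in the knockdown libraries. It rose 1.37-fold (log2 fold change 0.46, SE 0.112, edgeR adjusted p = 0.0111). Per kilobase of exon the ratio of NECTIN1 to NECTIN3 was 0.922 and 1.02 in the controls, against 0.363 and 0.412 after knockdown. NECTIN2 held 59.3 ± 0.675% of the summed nectin level in the controls and 62.1 ± 5.13% in the knockdown (SD, n = 2 each), with a log2 fold change of 0.14. NECTIN4 had 5 to 14 counts in each library (log2 fold change 0.83, SE 0.498, edgeR adjusted p = 0.246). Afadin (AFDN, chr6:167826922-167972023), the scaffold that binds nectins, had 115 and 121 CPM in the controls and 179 and 154 CPM in the knockdown libraries, a rise of 1.41-fold (log2 fold change 0.50, SE 0.118, edgeR adjusted p = 0.00924). Neither NECTIN3 nor AFDN was called without control replicate 1 (edgeR adjusted p = 0.100 and 0.126) or without control replicate 2 (adjusted p = 0.135 and 0.0860).

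Of 10 desmosome genes, PPL, EVPL, PKP3 and JUP fell and DSC2 and DSC3 rose (40% and 20%, against 13.1% and 12.5% of all genes tested). The plakin DSP, the plakophilins PKP2 and PKP4 and the cadherin DSG2 were not called. Periplakin (PPL, chr16:4882507-4960741) had 127 and 144 CPM in the controls and 57.7 and 52.0 CPM in the knockdown libraries. Envoplakin (EVPL, chr17:76004502-76027452), with which periplakin forms dimers, had 144 and 143 CPM in the controls and 74.6 and 59.4 CPM in the knockdown libraries. The fold changes of these partners were close, 2.47-fold and 2.14-fold lower (log2 fold changes -1.30 and -1.10, SE 0.119 and 0.126, edgeR adjusted p = 3.66e-05 and 0.000142). Desmoplakin (DSP), the plakin that every desmosome needs, had 355 and 334 CPM in the controls and 443 and 396 CPM in the knockdown libraries. Its knockdown values lay above the controls, but it was not called (log2 fold change 0.28, SE 0.134, edgeR adjusted p = 0.142). DSP made up 48.4 ± 2.02% of the summed plakin level per kilobase in the controls and 72.3 ± 0.873% in the knockdown (SD, n = 2 each). That sum was 71.0 ± 0.0898 CPM per kilobase in the controls and 57.8 ± 5.23 in the knockdown.

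Among the armadillo proteins, which sit between cadherins and plakins, PKP3 and JUP fell. PKP3 (plakophilin 3, chr11:392614-404908) had 138 and 128 CPM in the controls and 70.7 and 50.6 CPM in the knockdown libraries (log2 fold change -1.13, SE 0.146, edgeR adjusted p = 0.000298). Plakoglobin (JUP, chr17:41754604-41786931), which serves desmosomes and adherens junctions, had 181 and 166 CPM in the controls and 126 and 120 CPM in the knockdown libraries. Its fall was smaller, 1.41-fold (log2 fold change -0.50, SE 0.113, edgeR adjusted p = 0.00765), and was not called without control replicate 1 (adjusted p = 0.0725). PKP2, the plakophilin of simple epithelia and heart, had 55.2 and 54.0 CPM in the controls and 51.0 and 55.9 CPM in the knockdown libraries, and the groups overlapped (log2 fold change -0.03, SE 0.122, edgeR adjusted p = 0.891). PKP4 had 165 and 154 CPM in the controls and 135 and 122 CPM in the knockdown libraries. Its groups did not overlap, and its adjusted p was 0.0632 (log2 fold change -0.31, edgeR). PKP4 was called lower in 7 of 12 alternatives, leaving out knockdown replicate 1 among them (edgeR adjusted p = 0.0190). PKP3 held 58.8 ± 0.340% of the summed plakophilin level per kilobase in the controls and 42.8 ± 5.29% in the knockdown, while the sum was 59.5 ± 2.87 and 37.0 ± 4.18 CPM per kilobase (SD, n = 2 each).

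The desmosomal cadherins lie in 1 cluster on chromosome 18. DSC2 (desmocollin 2, chr18:31058840-31102522) had 90.6 and 99.8 CPM in the controls and 145 and 160 CPM in the knockdown libraries, a rise of 1.60-fold (log2 fold change 0.68, SE 0.114, edgeR adjusted p = 0.00136). DSC3 (chr18:30989365-31042815), 16.0 kb away on the same strand, had 22.7 and 25.7 CPM in the controls and 35.9 and 33.0 CPM in the knockdown libraries, a rise of 1.42-fold (log2 fold change 0.51, SE 0.153, edgeR adjusted p = 0.0286). DSG2 (desmoglein 2), the main desmoglein of simple epithelia, had 253 and 226 CPM in the controls and 278 and 274 CPM in the knockdown libraries. DSG2 was not called (log2 fold change 0.20, SE 0.124, edgeR adjusted p = 0.256), although both knockdown libraries lay above the controls. The summed level of the 3 cadherins was 50.4 ± 2.34 CPM per kilobase in the controls and 62.3 ± 0.0181 in the knockdown (SD, n = 2 each). DSC2 was not called without control replicate 1 (edgeR adjusted p = 0.0535). DSC3 lost its call in 6 of 12 alternatives, among them leaving out control replicate 1 or 2 (edgeR adjusted p = 0.304 and 0.142), leaving out knockdown replicate 1 (adjusted p = 0.0570) and the DESeq2 Wald test (adjusted p = 0.0532).

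**Figure D2:**
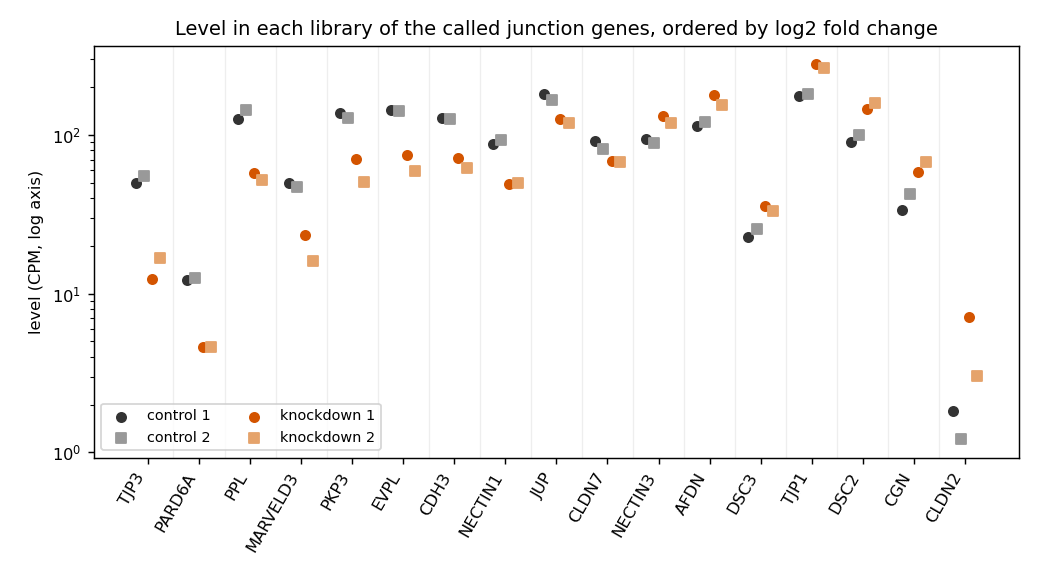
Level in CPM (log axis) of the 17 called junction genes in each of the 4 libraries (circles for replicate 1, squares for replicate 2, dark and light grey for control, dark and light orange for knockdown), ordered by log2 fold change. The groups do not overlap for any of the 17, which were called from these same libraries, so this adds no support to the calls. Over all genes tested, both knockdown libraries lay below both controls for 31.3% and above them for 32.3%. CLDN2 and MARVELD3 show the widest gaps between the knockdown libraries on this axis, at 7.17 against 3.03 CPM and 23.3 against 16.1 CPM.

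EPCAM, an epithelial adhesion protein that stabilises claudins, had the highest level of the 38 genes in the controls by either length, 49.3 ± 6.47 CPM per kilobase of exon, and 44.9 ± 0.0710 in the knockdown (SD, n = 2 each). It was not called (log2 fold change -0.13, SE 0.119, edgeR adjusted p = 0.449), and with counts corrected for levelling off its log2 fold change was -0.20. The order of the next genes depended on the length used. Per kilobase of all exons, DSG2 followed at 39.6 ± 3.14, and JUP, PKP3, CLDN7, NECTIN2 and DSP lay between 34.3 and 35.02 with SDs of 1.04 to 2.65, so these 5 do not differ beyond their spread. Per kilobase of the canonical transcript, EPCAM was at 80.3 ± 10.5, CTNNA1 followed at 65.7 ± 3.57, CLDN7 and CLDN4 at 56.3 ± 4.29 and 55.5 ± 1.03, and DSG2 was at 42.1 ± 3.34. At the other end CLDN2, CLDN1 and NECTIN4 had 0.445 ± 0.125, 0.314 ± 0.02996 and 0.138 ± 0.0408 CPM per kilobase in the controls.

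**Figure D3:**
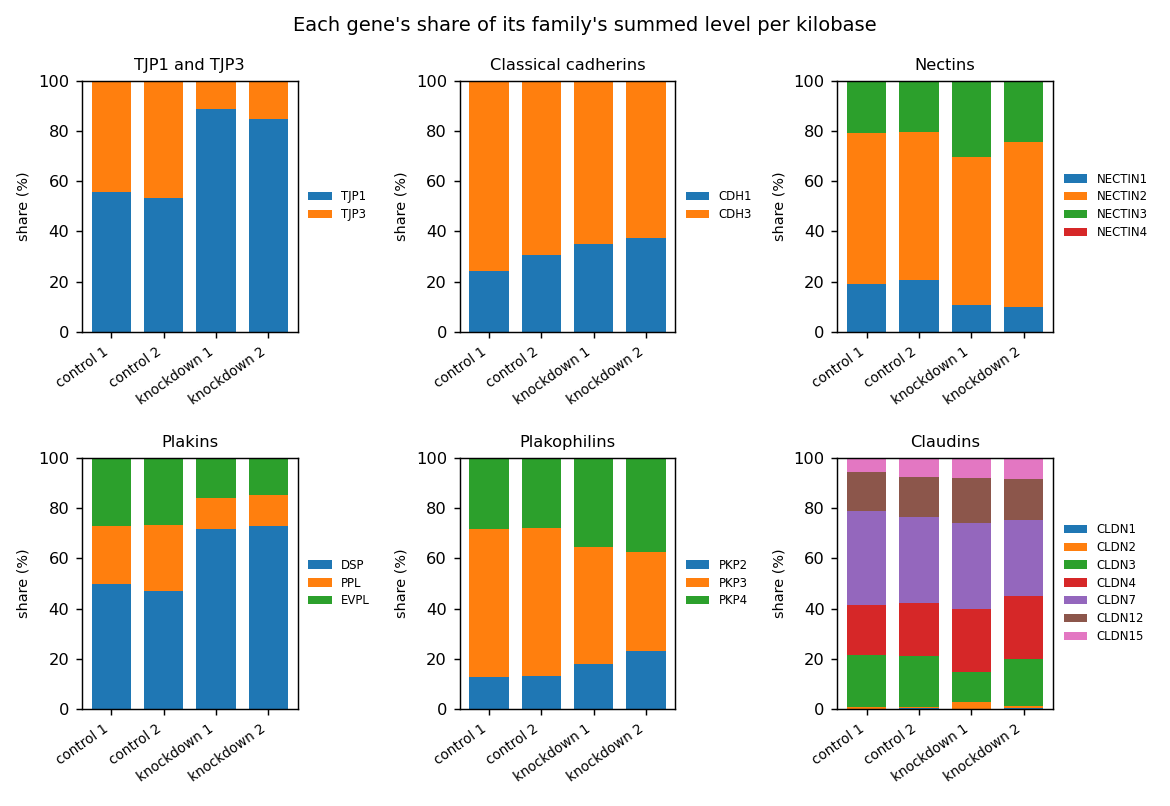
Share of each gene (percent, y axis from 0) in the summed level per kilobase of exon of its family, counting the genes among the 38 alone, in each of the 4 libraries. TJP3 made up 44.4% and 46.6% of the TJP1 and TJP3 sum in the controls, against 11.2% and 15.2% after knockdown, and DSP made up 49.8% and 46.9% of the plakins in the controls, against 71.7% and 72.9% after knockdown.

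The other genes of these junctions, 62 that are not among the 38, gave 36 with enough counts to test, of which 6 were called higher and 5 lower (16.7% and 13.9%, near the 12.5% and 13.1% of all genes tested). Those called higher included AMOTL2, AJUBA and CLDN6. AMOTL2, an angiomotin that binds tight junction scaffolds and YAP, had 66.9 and 69.6 CPM in the controls and 184 and 169 CPM in the knockdown libraries (log2 fold change 1.37, SE 0.113, edgeR adjusted p = 2.20e-05). AJUBA, a LIM protein of adherens junctions, had 36.5 and 44.8 CPM in the controls and 112 and 106 CPM in the knockdown libraries, 2.68-fold higher. CLDN6, a claudin of embryonic epithelia, had 9.70 and 11.97 CPM in the controls and 26.4 and 37.05 CPM in the knockdown libraries, 2.91-fold higher. CXADR (log2 fold change 0.64) and CLDN11 were also called higher, CLDN11 with 1 and 2 counts in the controls and 12 in each knockdown library.

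Of 12 other polarity genes tested, 4 fell and none rose (33.3%, against 13.1% of all genes tested). PALS1, CDC42, LIN7C and DLG1 were among the 8 not called, with log2 fold changes between -0.07 and 0.04. The others of the 8 were LIN7A at 0.49, PRKCI at 0.30, SCRIB at -0.17 and LLGL2 at -0.32. PRKCZ, an atypical protein kinase C that binds the PARD6 proteins, had 65.8 and 64.2 CPM in the controls and 32.5 and 31.1 CPM in the knockdown libraries, 2.04-fold lower (edgeR adjusted p = 0.000203). ILDR1, a protein of tricellular tight junctions and no polarity gene, had 11.98 and 14.0 CPM in the controls and 2.62 and 4.03 CPM in the knockdown libraries, 3.91-fold lower (edgeR adjusted p = 0.000412). LLGL1, a basolateral polarity protein, fell by 0.63 on the log2 scale and PARD6G, the third PARD6 paralog, fell by 0.59. CRB3, the Crumbs protein of epithelia, fell 1.59-fold (edgeR adjusted p = 0.0177). The adherens junction genes CTNNB1 and VCL, beta-catenin and vinculin, had log2 fold changes of 0.05 and 0.12 and were not called. The desmosomal cadherins DSG1, DSG3, DSG4 and DSC1 had at most 8 counts in any library and were not tested. CLDN5, CLDN8, CLDN14, CLDN17 and PARD3B had no count in any library, which allows up to 3 counts, or between 0.174 and 0.227 CPM, for counting error only.

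Of 12 tested transcription factors and splicing regulators known to act in epithelial cells, 5 rose and 1 fell (41.7% and 8.33%, against 12.5% and 13.1% of all genes tested). GRHL3, OVOL1, ESRP1, ESRP2, ELF3 and SNAI1 were not called. GRHL2, a grainyhead factor, fell from 10.8 and 8.79 to 4.49 and 2.42 CPM (log2 fold change -1.49 with SE 0.305, edgeR adjusted p = 0.00419). The repressor genes ZEB1 and SNAI2 rose 2.56-fold and 3.30-fold, and GRHL1, OVOL2 and KLF5 rose by 0.37 to 0.55 on the log2 scale. The part of these factors in the levels of the junction genes was not tested.

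The junction genes that rose and those that fell differed in base composition. Transcripts of the 10 genes that fell had a median GC content of 61.1% (51.8% to 66.7%), and those of the 7 that rose had 45.0% (35.3% to 56.2%). Over all genes tested the called genes differed the same way, at 55.2% for those called lower and 46.5% for those called higher. Across the 38 genes Spearman's rho between log2 fold change and GC content was -0.47, and across the 19546 tested genes with a value it was -0.17. Genes of 1 set of libraries share depth and composition and are not replicates. Transcript length ran the other way, with medians of 3290.5 bases for the genes that fell and 7190 bases for those that rose. Over all genes tested the medians were 2651 bases for those called lower and 3661.5 bases for those called higher. Spearman's rho between log2 fold change and length was 0.27 across the 38 genes and 0.06 across the 19546. With offsets for GC content and length, 15 of the 17 calls held, those of CLDN7 and DSC3 being lost. PATJ, CDH1 and PKP4 gained a call with these offsets. PKP3 was then at -0.87, TJP3 at -1.68 and TJP1 at 0.47 on the log2 scale. The part of base composition in the differences was not otherwise tested.

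**Figure D4:**
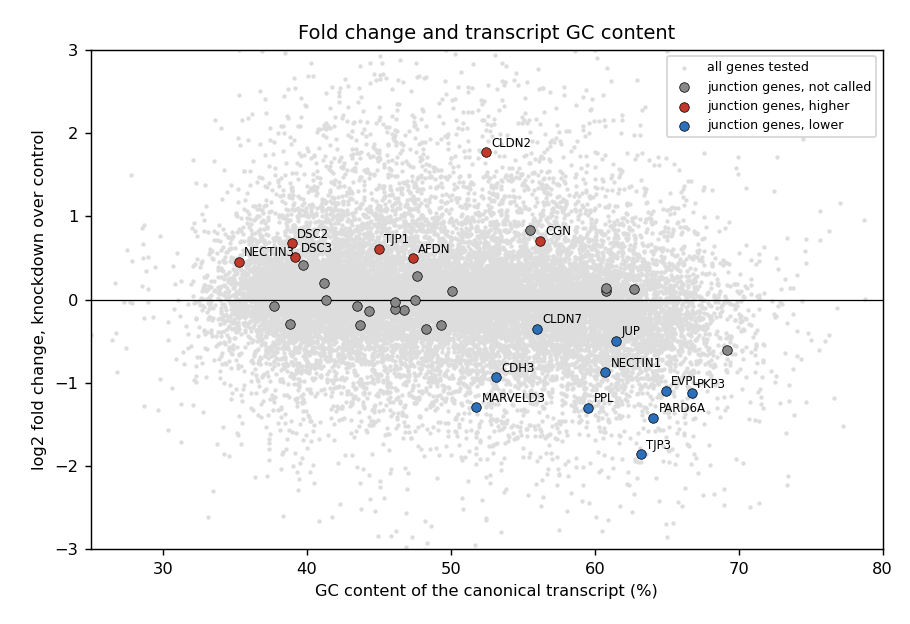
Log2 fold change (knockdown over control, y axis) against the GC content of the canonical transcript in percent (x axis) for all genes tested (pale grey; some lie outside the range drawn) and the 38 junction genes (red called higher, blue called lower, outlined grey not called). The 10 genes that fell lie between 51.8% and 66.7% GC, and the 7 that rose lie between 35.3% and 56.2%.

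Markers of colon epithelium and of other cell types were read in the same libraries. The 7 colon epithelial markers summed to 518 and 431 CPM in the controls and 477 and 521 CPM in the knockdown libraries. Most of this was KRT8, KRT18 and KRT19, at occupancies of 82.8%, 75.6% and 65.7%, above any of the 38 genes, so a change in them may not show. KRT8 was highest (189 and 198 CPM on average in controls and knockdown), and CDX2, an intestinal transcription factor, fell by 0.47 on the log2 scale. Other colon markers were low, with VIL1 at 11 to 14 counts, LGALS4 at 4 to 9 and CDH17 at 0 to 5 in each library. The 7 fibroblast markers summed to 195 and 227 CPM in the controls and 227 and 248 CPM in the knockdown libraries, and 1 of 3 tested, COL6A3, was called higher. COL1A1 was the highest of them in the controls (121 CPM on average, COL6A3 73.9) and COL6A3 in the knockdown (120 CPM, COL1A1 95.5), and LUM had at most 1 count in any library. The 7 leukocyte markers summed to 37.8 and 34.7 CPM in the controls and 35.3 and 35.4 CPM in the knockdown libraries, with CD68 highest, PTPRC at 1 to 9 counts and ITGAM called higher of 5 tested. The 5 endothelial markers summed to 8.54 to 10.6 CPM in all libraries, and none of 3 tested was called. For HEK293T, the kidney line in which lentivirus is often made, 6 markers summed to 126 and 114 CPM in the controls and 112 and 130 CPM in the knockdown libraries, with CRABP2 highest (occupancy 69.8%) and NEFH called higher of 3 tested. The part of other cells in the junction values was not tested.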

How the data were processed

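RNA sequencing read counts per gene were compared between 2 control and 2 RALY knockdown libraries. The deposited values are whole-number counts, 1 table per library, in the layout of featureCounts per the file headers. GRCh38 is the build, per the submitters' processing notes, and the tools were featureCounts, Subread, SAMtools and HISAT2 2.0.4, with no role or setting. Neither strand use nor duplicate handling is stated there. Symbols, transcript lengths and GC content came from GENCODE release 44, which held 58472 of the 58884 genes. Its canonical transcripts set lengths for occupancy, and the tables' exon lengths set levels per kilobase.

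Counts of all genes passing filterByExpr (19686) were scaled by TMM and fitted with edgeR 4.0.16 under R 4.3.3 (robust quasi-likelihood, a term for group). P-values were adjusted over all genes tested (Benjamini-Hochberg) and called under 0.05. Standard errors are the log2 fold change divided by the square root of F. The pipeline was tested on simulated data. Alternatives were DESeq2 1.42.0, its size factors, plain totals, no filter, a minimum of 1 CPM in 2 libraries, a replicate block, leaving out each library, counts corrected for levelling off (occupancy capped at 98%) and, added after the data were seen, GC and length offsets.

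The members and lists were chosen with earlier results of these data known. All 38 genes are named; of the other junction genes, the 4 called higher and 4 called lower with the smallest p were to be named, with called regulators and, per marker list, the highest and called genes. All other genes outside the 38 were named after their values were seen, and levels per kilobase of canonical transcript and a sum over further claudins were added then too. A gene that this rule names is not reported here. Protein sequences were not used here. Depth was 13360007 to 16847520 counts per library. Replicates differed beyond counting error, with chi-square over its degrees of freedom at 5.53 for controls and 10.3 for knockdown.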

Additional observations from a re-analysis of the deposited data

How the results depend on the processing

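Of the 17 called junction genes, 8 kept their call and direction in all 12 alternatives, 15 kept their call in all alternatives that used every library (CLDN7 and DSC3 did not), and none changed direction; 5 genes that were not called (CLDN3, PATJ, PARD6B, CDH1 and PKP4) were called in some alternative. The number of calls over all genes fell most when a control was left out, to 340 higher and 668 lower without control replicate 1 and 476 and 508 without control replicate 2, against 2908 and 3351 without knockdown replicate 1; with 1 library in a group, it is assumed to vary like the other group. Over these 4 fits, junction genes called higher ran from 1 to 7 and those called lower from 8 to 13, and other junction genes from 3 to 7 higher and 2 to 6 lower. With no filter on low counts, 8 other junction genes were called lower, against 5 in the main fit. Calls over all genes rose too, to 3100 lower against 2578. RALY kept its call throughout. Replicate numbers are shared by both groups, but no label says that they pair samples. Deviations of same-numbered libraries correlated at 0.23 over 19686 genes, and with the replicate block 3518 genes were called higher and 3536 lower, among them 8 and 14 junction genes. With 2 libraries a group, depth limits CLDN1, CLDN2 and NECTIN4 most.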
